A study of Macaca mulatta with 4 samples.

Results

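Neurexins, cerebellins and delta glutamate receptors are the molecules that hold both sides of cerebellar synapses together, and 6 genes of these families were followed here in single nuclei of the fetal rhesus macaque cerebellum. They are the neurexins NRXN2 (ENSMMUG00000022595) and NRXN3 (ENSMMUG00000013842), the cerebellins CBLN1 (ENSMMUG00000022217), CBLN2 (ENSMMUG00000010417) and CBLN4 (ENSMMUG00000006005), and the delta glutamate receptor GRID1 (ENSMMUG00000023612). They were taken by gene symbol, 6 of the 30807 genes of the count tables, and their unique molecular identifiers (UMIs, each one captured RNA molecule) were counted in the 32587 barcodes with 500 or more genes. The 6 genes gave 301317 UMIs for NRXN3, 26868 for GRID1, 20777 for NRXN2, 3718 for CBLN1, 619 for CBLN2 and 285 for CBLN4. A UMI of NRXN3 was found in 61.4% of nuclei, of NRXN2 in 40.3%, of GRID1 in 28.4%, of CBLN1 in 10.2%, of CBLN2 in 1.71% and of CBLN4 in 0.804%. Introns were counted, so a long gene collects more UMIs, and levels are compared between cell classes for 1 gene and not between genes.

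The 4 libraries each came from the cerebellum of 1 fetus. The 2 Control fetuses, a female and a male, had no intervention and were taken at 130 days of gestation. The 2 LPS fetuses had received 1 mg of lipopolysaccharide, a component of bacterial cell walls, in the amniotic fluid as a model of chorioamnionitis. The LPS female was taken at 131 days and the LPS male at 133 days. Each library is named below by its group and the sex of the fetus. With 2 fetuses in a group, exposure cannot be told apart from the age and the individual fetus, and no exact permutation test of a single value can give a two-sided p below 0.333.

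The parallel fibers of granule cells form the most numerous synapses on Purkinje cells. On the granule cell side neurexins span the membrane of the terminal, cerebellins are secreted into the cleft and bind them, and delta receptors in the membrane of the target cell bind the cerebellins from the other side. CBLN1 is the cerebellin known for this synapse, while CBLN2, CBLN4 and GRID1 are better known from other synapses.

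The libraries held between 6905 and 9256 such nuclei and between 34282015 and 61665690 UMIs in all barcodes. They fell into 2 pairs by sex rather than by exposure. Median UMIs per nucleus were 4506 and 4062 in the female libraries against 1882 and 2308 in the male ones, and the mean share of mitochondrial UMIs was 0.267% and 0.23% against 0.0212% and 0.0324%. The LPS male library stood apart further, with 38.7% of its UMIs inside nuclei against 58.7% to 74.1% in the others. Pairs of libraries shared between 16 and 22 barcodes, where the sizes of their lists give an expected 7.93 to 11.7. The free RNA of each library was read from empty droplets, the barcodes ranked by UMIs between 3 and 4 times the number of nuclei, and is given beside the values it touches.

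Nuclei were grouped without using the members, and clusters were named by marker genes, each name standing for nuclei like that type. The granule lineage held 22309 nuclei, from proliferating precursors through committing, migrating, maturing and later granule cells to mature granule cells, with 1 further granule cluster of no stage name called cluster 2. Cluster 2 is listed between migrating and maturing granule cells, a place that was not tested. Among the other classes were 1415 PAX2+ interneurons, which are immature inhibitory neurons, 231 molecular layer interneurons, 197 Golgi cells and 119 Purkinje cells. None of the markers found in the tables was at 0 in its own class, and the tables lacked 1 marker each of the granule lineage, molecular layer interneurons, the oligodendrocyte lineage and unipolar brush cells. The summed markers of molecular layer interneurons, PAX2+ interneurons, proliferating glia, proliferating precursors and maturing, later and mature granule cells had a mean in another class above their own lowest library. In all, 3291 nuclei in 2 clusters were not named and enter no class. Cluster 5 held 2642 of them, with 408, 122, 189 and 1923 in the Control female, Control male, LPS female and LPS male libraries. In the LPS male library these were 24.6% of nuclei, at a median of 766 UMIs and an estimated 86.6% free RNA. The unnamed nuclei stay in the library totals, so they lower the LPS male percentages of all nuclei and of all UMIs given below.

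CBLN1, the ligand of the parallel fiber synapse, was a granule cell transcript that switched on partway through the lineage. Of all CBLN1 UMIs in nuclei, the granule lineage held 86.3% in the Control female, 85.5% in the Control male, 88.1% in the LPS female and 77.1% in the LPS male library, where it made up 73.4%, 70.2%, 73.9% and 55.8% of nuclei. Levels are given as UMIs per 1000000 UMIs of the class in that library (CPM). In proliferating precursors the CBLN1 level was 11.003, 7.75, 9.52 and 7.13 CPM in the same order of libraries. Committing granule cells gave 8.74, 9.95, 9.12 and 10.96 CPM, and migrating granule cells 6.79, 5.76, 11.1 and 18.5. These values lay within those of classes outside the lineage, such as PAX2+ interneurons with 8.21 to 18.6 CPM and microglia with 3.76 to 27.1. In cluster 2 the level was 36.2, 47.1, 38.2 and 54.0 CPM, above each of those granule stages in every library. Maturing granule cells had 48.5, 74.6, 48.3 and 57.8 CPM. Later granule cells had 43.3, 51.1, 50.6 and 78.8, and mature granule cells 54.1, 60.4, 65.2 and 76.0. The ranges of these 4 granule groups overlapped each other, from neighbor to neighbor, and lay apart from every other class of 10 or more nuclei in each library. The next by mean was proliferating glia with 7.37 to 25.1 CPM, and microglia reached 27.1.

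CBLN1 was also in the free RNA, with 76.7, 26.6, 84.0 and 47.8 CPM in empty droplets, which is above the granule lineage in the female libraries and below it in the male ones. In barcodes with 100 UMIs or fewer, another reading of free RNA, it was at 31.5, 21.6, 34.5 and 44.6 CPM. Those values were below the granule lineage in each library. Purkinje cells and Golgi cells in the same libraries stayed at or below 7.95 and 2.57 CPM. With each nucleus thinned to 1000 UMIs, to set libraries at 1 depth, 5.85%, 5.48%, 3.78% and 7.93% of mature granule nuclei had a CBLN1 UMI. The exact 95% intervals were 4.17 to 7.94%, 3.73 to 7.74%, 2.18 to 6.07% and 6.62 to 9.42%, and they cover counting error only. In committing granule nuclei the share was 1.23%, 0.986%, 0.976% and 1.47%. In microglia, which should lack the gene, none of 80, 68, 61 and 42 thinned nuclei had one, which allows shares of up to 3.75%, 4.41%, 4.92% and 7.14%. At full depth the share in mature granule nuclei was 24.5%, 13.2%, 28.1% and 22.0%, at median depths of 5046, 2053, 4660.5 and 2922.5 UMIs, and in microglia it was 2.44%, 2.63%, 1.64% and 11.1%, at 3858, 2136, 3733 and 2343 UMIs.

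CBLN4 was rare, and its mean level was highest in later granule cells. Its level in later granule cells was 7.80, 8.13, 9.45 and 1.94 CPM, from 74, 25, 50 and 6 UMIs. Mature granule cells gave 4.60, 2.26, 9.45 and 0.395 CPM, and molecular layer interneurons 0, 3.91, 6.603 and 6.87 CPM from 0, 1, 2 and 3 UMIs. Empty droplets had 6.48, 2.36, 3.85 and 0.775 CPM, above mature granule cells in every library but the LPS female. The ranges of these classes overlapped. No CBLN4 UMI was found in Purkinje cells, Golgi cells, microglia or endothelial cells of any library. The LPS male library was the lowest of the 4 in both later and mature granule cells, and the LPS female the highest, so the LPS values enclosed the Control values. Later granule cells held 66.1%, 50%, 49.5% and 27.3% of all CBLN4 UMIs.

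CBLN2 stayed low in every class. Over the granule lineage it gave 4.60, 1.65, 6.80 and 4.86 CPM, against 7.56, 1.77, 10.3 and 4.65 in empty droplets, which were higher in every library but the LPS male. In barcodes with 100 UMIs or fewer CBLN2 was at 4.79, 9.60, 9.62 and 8.92 CPM, above the granule lineage in every library. Its levels in cluster 2 were 8.09, 4.17, 12.2 and 7.25 CPM, against 0, 0, 4.01 and 2.19 in committing granule cells. The highest class value was in Purkinje cells of the LPS female library, 35.0 CPM, which came from 16 UMIs in 8 of 22 nuclei. The Control female, Control male and LPS male libraries held 5, 1 and 0 CBLN2 UMIs in 27, 54 and 16 Purkinje nuclei. Of the 22309 granule nuclei, 3249 held a UMI of any of the 3 cerebellins and 115 held UMIs of more than 1 of them.

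**Figure D1:**
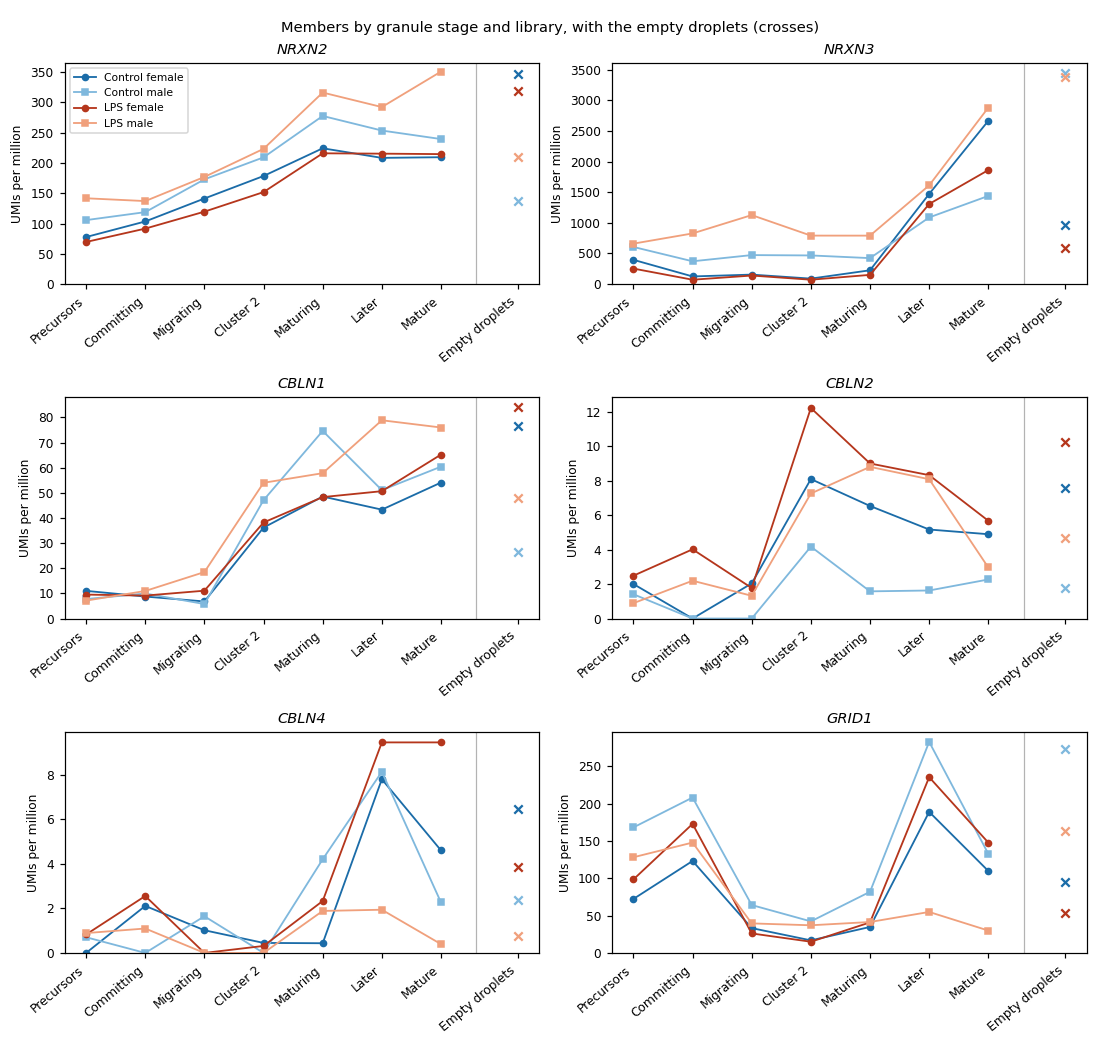
Level of each member in CPM (vertical axis, linear, own scale in each panel) along the 7 granule groups (horizontal axis, in the order of the stage names, with the unstaged cluster 2 set between migrating and maturing granule cells), 1 line per library, with crosses for that library's empty droplets at the right. CBLN1 is higher in maturing than in migrating granule cells in all 4 libraries, NRXN3 is highest in mature granule cells in all 4, and GRID1 in later granule cells is 54.9 in the LPS male library against 189 to 283 in the others.

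NRXN2, a neurexin of the granule cell terminal, rose by degrees up to maturing granule cells, except from precursors to committing cells in the LPS male library. Its level in proliferating precursors was 77.7, 106, 69.6 and 142 CPM. Committing granule cells had 103, 119, 91.6 and 137, migrating granule cells 141, 173, 120 and 177, and cluster 2 178, 209, 152 and 223 CPM. In maturing granule cells it reached 224, 277, 216 and 316 CPM. Mature granule cells had 209, 239, 214 and 351, higher than maturing ones only in the LPS male library. In each library the value was higher in migrating than in committing and higher in maturing than in migrating granule cells. The LPS male library was the highest of the 4 in all 7 granule groups, and each male library was above each female library in all 7 groups. Empty droplets did not follow that order, with 347, 137, 318 and 210 CPM. In both female libraries they lay above all 7 granule groups. Barcodes with 100 UMIs or fewer had 270, 204, 209 and 277 CPM, above all 7 groups only in the Control female library.

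Outside the lineage NRXN2 was highest in Golgi cells, with 219, 350, 241 and 316 CPM, a mean of 282 ± 61.4 (SD, n = 4 libraries). Endothelial cells, with 38.4, 32.7, 22.9 and 77.6 CPM, had the lowest mean of the classes with 10 or more nuclei in each library. Over the 18 classes and stages with 10 or more nuclei in each library, every neighbor in the order of mean levels overlapped the next in its range over libraries. The classes come from the same libraries, so overlapping ranges do not show that neighbors lack an order within each library.

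NRXN3 was most abundant in the 3 classes of inhibitory interneurons. Purkinje cells, which are inhibitory too, had 2253, 926, 1665 and 1734 CPM, within the range of mature granule cells except in the Control male, which lay below it. In PAX2+ interneurons its level was 28693, 23144, 31686 and 14724 CPM. Molecular layer interneurons, which synapse on Purkinje cells, had 20877, 13658, 23451 and 8683 CPM. Golgi cells, the inhibitory neurons of the granular layer, had 13848, 7229, 16040 and 4035, from 43, 85, 54 and 15 nuclei. The 3 classes overlapped each other in their ranges over libraries. Within each library, though, PAX2+ interneurons were highest, then molecular layer interneurons, then Golgi cells. The lowest Golgi value lay above the highest value of every class below them. The LPS male library was the lowest of the 4 in each of these 3 classes, and the LPS female the highest. PAX2+ interneurons made up between 3.54% and 5.21% of nuclei and held 57.0%, 59.5%, 57.5% and 30.5% of the NRXN3 UMIs. Thinned to 1000 UMIs, 96.8%, 98.2%, 96.8% and 99.3% of PAX2+ nuclei had a NRXN3 UMI.

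Within the granule lineage NRXN3 was a late gene. Later granule cells had 1472, 1089, 1308 and 1612 CPM and mature granule cells 2666, 1440, 1862 and 2882, higher than later granule cells in each library. In the stages before, the 2 pairs of libraries parted. Committing granule cells had 125 and 71.9 CPM in the Control and LPS female libraries and 373 and 828 in the Control and LPS male libraries. In cluster 2 the female libraries had 90.1 and 72.3 CPM and the male ones 468 and 792. Empty droplets showed the same division, with 968 and 589 CPM in the female and 3440 and 3379 in the male libraries, and so did microglia, with 194 and 301 against 2214 and 1975. With the estimated free RNA subtracted, committing granule cells were at 0, 52.0, 0 and 357 CPM and mature granule cells at 2838, 1282, 1928 and 2911, in the order Control female, Control male, LPS female and LPS male. The subtraction used barcodes with 100 UMIs or fewer, where NRXN3 was at 1436, 2451, 1281 and 2746 CPM, and not the empty droplets above. It left microglia at 3.48, 2112, 143 and 1512 CPM and endothelial cells at 20.3, 1809, 0 and 962. Most of the NRXN3 level of these classes in the male libraries thus remained.

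The share of nuclei with a NRXN3 UMI at 1000 UMIs rose from later to mature granule nuclei in each library, as the levels did. It was 67.0%, 57.7%, 60.9% and 69.1% in later and 88.5%, 67.3%, 75.2% and 91.0% in mature granule nuclei. In microglia it was 11.3%, 26.5%, 4.92% and 52.4%, and in committing granule nuclei 11.8%, 30.1%, 6.10% and 48.8%. The shares in committing granule nuclei were close to those in microglia, and the later and mature ones were above both in every library. Microglia should lack the gene, yet most of their level in the male libraries remained with free RNA subtracted, so this background is uncertain. In the Control male library they had a higher level than mature granule cells, 2214 against 1440 CPM, with a lower share. Without thinning, mature granule nuclei had 99.7%, 83.3%, 95.5% and 99.1% and microglia 30.5%, 46.1%, 21.3% and 71.1%.

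**Figure D2:**
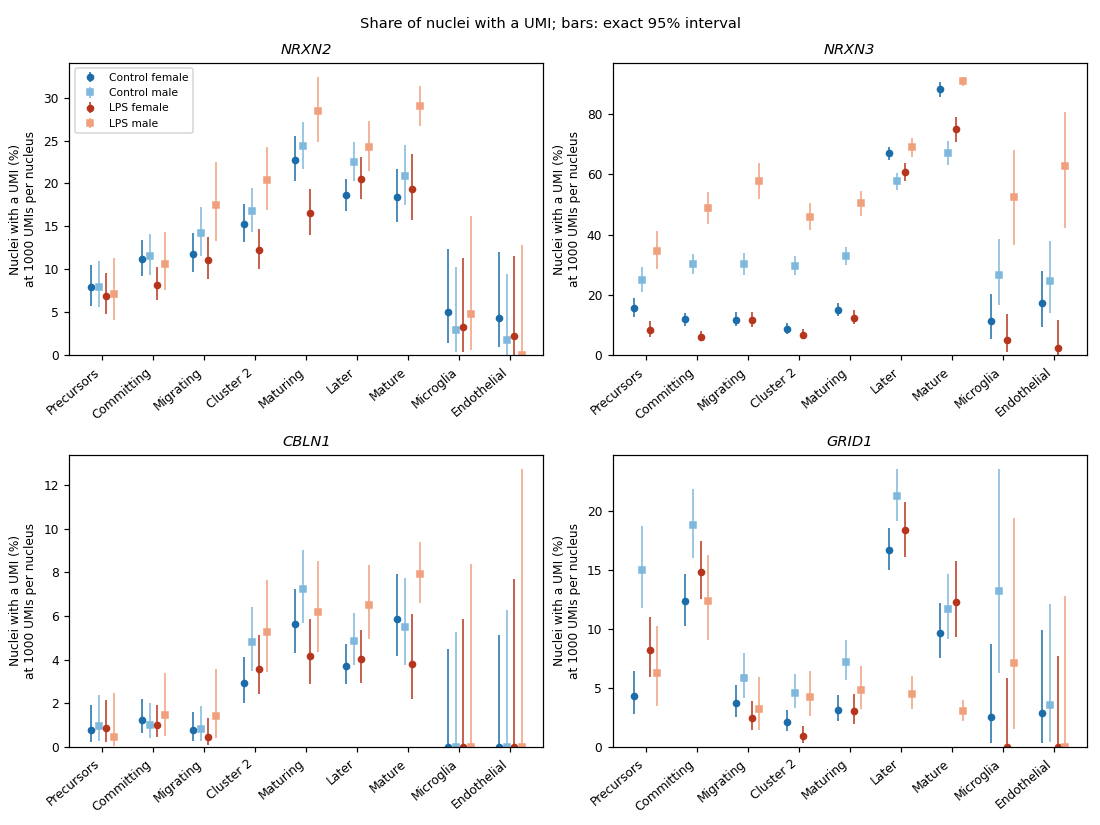
Share of nuclei with at least 1 UMI of NRXN2, NRXN3, CBLN1 and GRID1 (vertical axis, percent, each nucleus thinned to 1000 UMIs) in the 7 granule groups and in microglia and endothelial cells (horizontal axis), 1 point per library with its exact 95% binomial interval. NRXN3 shares in mature granule nuclei run from 67.3% to 91.0%, and CBLN1 shares in microglia and endothelial cells are 0.

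GRID1, the delta receptor with a role at synapses outside the parallel fiber contact as well, was high in Golgi cells and in the oligodendrocyte lineage. Golgi cells had 1796, 2077, 1358 and 4106 CPM, from 43, 85, 54 and 15 nuclei, with the LPS male far above the rest. The oligodendrocyte lineage, a glial class, had 1337, 1646, 1343 and 1198 CPM, a mean of 1381 ± 189 (SD, n = 4 libraries). Those 2 classes overlapped in range, with Golgi cells the higher within each library, and both lay above all other classes. Molecular layer interneurons followed with 621, 1031, 472 and 547 CPM and Bergmann glia, the radial glia of the Purkinje cell layer, with 576, 481, 458 and 633.

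Purkinje cells, the targets of the parallel fibers, had GRID1 levels of 432, 742, 418 and 302 CPM, from 266, 290, 191 and 38 UMIs. These overlapped the values of Bergmann glia and of PAX2+ interneurons, which had 495, 535, 297 and 552 CPM. At 1000 UMIs, 83.7%, 77.6%, 75.9% and 93.3% of Golgi nuclei and 60.2%, 75.0%, 68.2% and 52.9% of oligodendrocyte lineage nuclei had a GRID1 UMI. In microglia the share was 2.5%, 13.2%, 0% and 7.14%, where 0 of 61 nuclei allows up to 4.92%.

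Along the granule lineage GRID1 had 2 high points, the second of them slight in the LPS male library. It was at 123, 208, 173 and 148 CPM in committing granule cells and fell to 33.3, 64.2, 26.1 and 39.6 in migrating granule cells. Cluster 2 had 16.8, 42.3, 15.03 and 37.1 CPM, the lowest mean over libraries of the 18 classes and stages, though not the lowest value in either LPS library. Later granule cells then gave 189, 283, 236 and 54.9, and mature granule cells 110, 133, 148 and 29.99 CPM. Empty droplets had 95.04, 274, 53.9 and 163 CPM, above committing and mature granule cells in both male libraries. In the LPS male library they were above later granule cells as well. Barcodes with 100 UMIs or fewer had 159, 293, 108 and 174 CPM. These were above committing and mature granule cells in every library but the LPS female, and above later granule cells in both male libraries. In later and mature granule cells the LPS male library was the lowest, while in the committing stage it lay between the other libraries. The thinned share of later granule nuclei with a GRID1 UMI was 16.8%, 21.3%, 18.4% and 4.44%, with exact 95% intervals of 15.1 to 18.6%, 19.2 to 23.6%, 16.2 to 20.8% and 3.18 to 6.02%. In mature granule nuclei it was 9.69%, 11.7%, 12.3% and 3%.

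**Figure D3:**
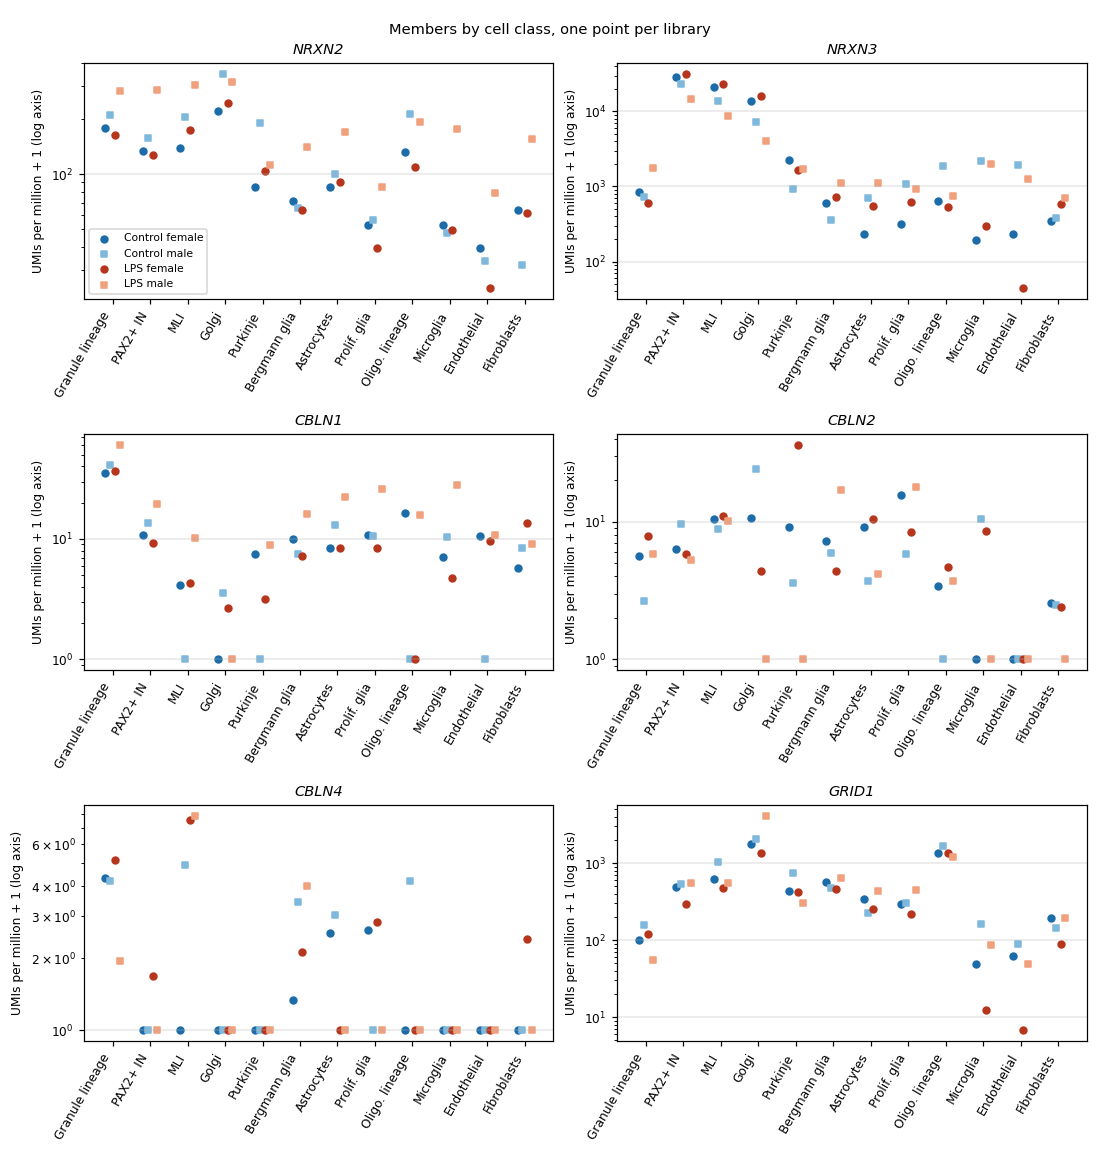
Level of each member, as CPM plus 1 on a log axis, in 12 classes (horizontal axis; IN, interneurons; MLI, molecular layer interneurons), 1 point per library. NRXN3 in PAX2+ interneurons lies between 14724 and 31686 CPM, GRID1 in Golgi cells between 1358 and 4106, and CBLN4 is at 0 in all libraries in Purkinje, Golgi, microglial and endothelial nuclei.

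For each member the genes with the most similar levels over 21 classes and stages were sought among the 13398 genes with 10 or more CPM in at least 1 of them. These points share their libraries and differ in depth, and the correlations are a description. NRXN2 was closest to SNAP91, a protein of synaptic vesicle recycling, at r = 0.974, then to the sodium channel gene SCN3A at 0.939 and the RNA-binding protein gene CELF4 at 0.937. NRXN3 was closest to GAD2, which makes the transmitter GABA, at r = 0.887, followed by the unnamed gene ENSMMUG00000037502 at 0.864 and the sorting receptor gene SORCS3 at 0.843, the last 1 of the markers used to name interneurons, as is GAD2. CBLN1 was closest to SLC12A8 at r = 0.896, LRRC28 at 0.893 and ENSMMUG00000009067 at 0.875. GRID1 was closest to RIMBP2, a protein of the presynaptic active zone, at r = 0.839, FLRT1 at 0.822 and C2orf80 at 0.819. For CBLN4, with its few UMIs, the values were 0.808 for ZNF804B, 0.794 for PPP1R1C and 0.786 for SYT9. For CBLN2 B3GALT1 had r = 0.894 and ZNF641 0.819.

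Control and LPS libraries were compared in the granule lineage, its 7 groups and 11 other classes. The test was edgeR's quasi-likelihood test on UMIs summed per library, with Benjamini-Hochberg adjustment over all genes tested, and a gene was called at an adjusted p under 0.1 and a log2 fold change past 0.25. In the granule lineage none of 14930 genes was called, a background of 0%, and the count of called genes was 0 in the other 18 comparisons too. Between 14 and 145 genes per comparison had an unadjusted p under 0.05 by edgeR, in all 830 of 176349 tests, or 0.471%. Where no gene differs, a test that holds its level gives a share near 0.05, so this test was conservative here. The 0 called genes do not show that the groups were alike. DESeq2 called genes in 5 of the 19 comparisons, at most 6. With the sex of the fetus as a block edgeR called genes in 6 comparisons, at most 27, and no member among them. Of 114 possible tests of a member, 77 passed the filter on low counts. None of the 77 was called, the smallest adjusted p was 1.00, and 1 had an unadjusted p under 0.05.

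In the granule lineage as a whole CBLN1 was at 34.0 and 40.5 CPM in the Control female and male and at 35.5 and 59.5 in the LPS female and male libraries. Its log2 fold change was 0.36 (SE 0.37, edgeR adjusted p = 1.00), and the groups overlapped. CBLN2 was at 4.60 and 1.65 in Control and 6.80 and 4.86 in LPS libraries, with a log2 fold change of 0.85 (SE 0.70), the only member of the 6 whose groups did not overlap there. Both LPS libraries were above both Control libraries for 7.1% of all genes tested in the lineage. CBLN4 was at 3.32 and 3.22 in Control and 4.14 and 0.943 in LPS libraries, with a log2 fold change of -0.36 (SE 0.83). The adjusted p of each was 1.00 by edgeR. Without the LPS male library the log2 fold change of CBLN1 was -0.062 and that of CBLN4 0.34, and that of CBLN2 ran from 0.29 to 1.91 as each library in turn was left out.

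NRXN2 was at 177 and 207 CPM in Control and 162 and 281 in LPS granule nuclei, with a log2 fold change of 0.22 (SE 0.36). NRXN3 was at 855 and 730 in Control and 603 and 1754 in LPS granule nuclei, so the 2 LPS libraries were the lowest and the highest of the 4, with a log2 fold change of 0.57 (SE 0.58). GRID1 was at 100 and 157 in Control and 119 and 53.9 in LPS granule nuclei, with a log2 fold change of -0.55 (SE 0.47). The edgeR adjusted p of each was 1.00. Without the LPS male library the log2 fold change was -0.23 for NRXN2, -0.40 for NRXN3 and -0.09 for GRID1.

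The mix of granule stages moved with these values in 1 library. Mature granule cells made up 34.5% of granule nuclei in the LPS male library against 9.59%, 9.62% and 8.31% in the Control female, Control male and LPS female libraries. When the 7 groups were given equal weight within a library, the NRXN3 level of the LPS male granule lineage was 1242 CPM in place of 1754, and its CBLN1 level was 43.3 in place of 59.5. The log2 difference of the group means then went from 0.57 to 0.33 for NRXN3, from 0.34 to 0.20 for CBLN1 and from -0.57 to -0.36 for GRID1. It went from 0.21 to 0.11 for NRXN2 and from -0.27 to -0.07 for CBLN4, and for CBLN2 it was 0.73 both ways.

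Stage by stage the differences stayed within the spread of the libraries for most members. CBLN1 in mature granule cells was higher in both LPS libraries, at 65.2 and 76.0 against 54.1 and 60.4 CPM, with a log2 fold change of 0.30 (SE 0.31). In later granule cells its log2 fold change was 0.43 (SE 0.34), and the groups overlapped. It was 0.16 without the LPS male and 0.65 without the LPS female library. Empty droplets had 76.7 and 26.6 CPM of CBLN1 in Control and 84.0 and 47.8 in LPS libraries, higher in LPS in each sex. They were above mature and later granule cells in both female libraries. Barcodes with 100 UMIs or fewer were below both stages in every library, and they too were higher in LPS in each sex. In migrating granule cells, where the level was below that of empty droplets in every library, the CBLN1 log2 fold change was 1.16 (SE 0.59) from 20, 7, 25 and 14 UMIs. CBLN2 in later granule cells was at 5.16 and 1.63 in Control and 8.31 and 8.08 in LPS libraries, with a log2 fold change of 1.13 (SE 0.73), from 49, 5, 44 and 25 UMIs. In maturing granule cells CBLN2 was at 6.53 and 1.58 in Control and 8.99 and 8.80 in LPS libraries, with a log2 fold change of 0.99 (SE 0.81). Without the Control male library the CBLN2 values were 0.55 in later and 0.34 in maturing granule cells, and without the Control female 2.42 and 2.57. In both stages CBLN2 was below the empty droplets in every library but the LPS male, and empty droplets were higher in the LPS library of each sex as well. Barcodes with 100 UMIs or fewer had 4.79 and 9.60 CPM of CBLN2 in Control and 9.62 and 8.92 in LPS libraries, higher in LPS only in females. All of these had an edgeR adjusted p of 1.00. Of all genes tested, both LPS libraries were above both Control libraries for 8.26% in mature, 8.72% in later, 8.91% in maturing and 9.45% in migrating granule cells.

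GRID1 in later granule cells was at 189 and 283 CPM in Control and 236 and 54.9 in LPS libraries. The log2 fold change was -0.65 (SE 0.72) and turned to 0.065 without the LPS male library. In mature granule cells it was -0.41 (SE 0.76), and 0.36 without that library. NRXN3 in mature granule cells had a log2 fold change of 0.16 (SE 0.57), which was -0.10 without the LPS male and -0.28 without the Control male library. The adjusted p of each was 1.00 by edgeR.

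**Figure D4:**
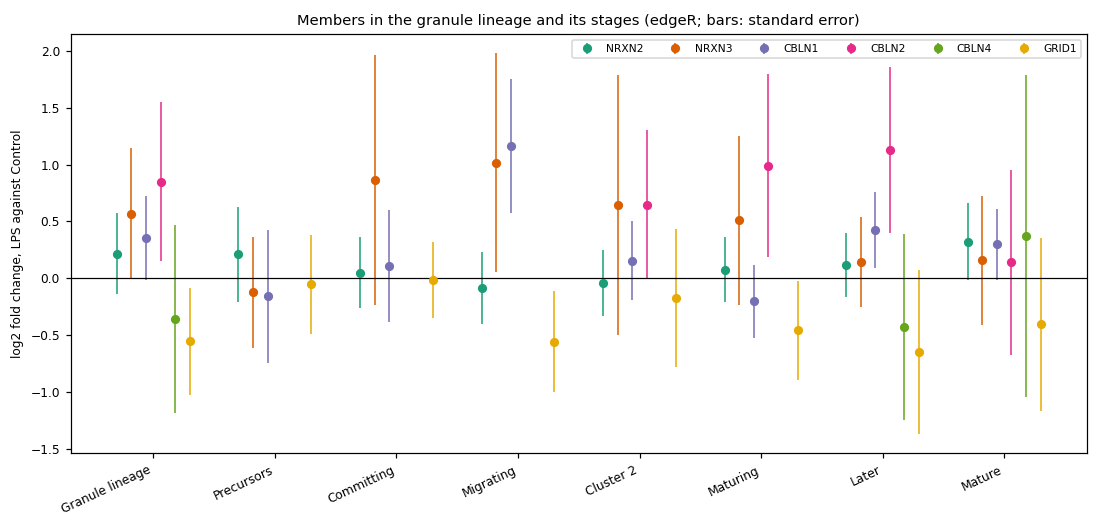
Log2 fold change, LPS against Control (vertical axis; above 0, higher in LPS), of each member that passed the filter in the granule lineage and its 7 groups (horizontal axis), from edgeR on UMIs summed per library, 2 libraries a group. Bars are 1 standard error, derived from the F statistic of the test, and none of the points was called, with NRXN3 in the whole lineage at 0.57 and GRID1 at -0.55.

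Outside the granule lineage, NRXN3 in PAX2+ interneurons had a log2 fold change of -0.16 (SE 0.68), with the LPS libraries again the lowest and the highest. In Bergmann glia NRXN3 was at 607 and 358 CPM in Control and 723 and 1103 in LPS libraries, a log2 fold change of 0.87 (SE 0.45). In fibroblasts it was at 351 and 380 against 575 and 702, a log2 fold change of 0.76 (SE 0.30). That was the 1 member test with an unadjusted p under 0.05 by edgeR, and its edgeR adjusted p was 1.00. Both classes lay below the NRXN3 level of the empty droplets of the male libraries, and both LPS libraries were above both Control libraries for 9.28% of all genes tested in Bergmann glia and 13.5% in fibroblasts. With doublets left out the NRXN3 levels in fibroblasts were 287 and 379 against 211 and 702 CPM, so that the groups overlapped, and the log2 fold change was 0.39. With free RNA subtracted it was 2.14. In Bergmann glia the levels without doublets were 93.5 and 295 against 98.6 and 700.01 CPM, and the groups overlapped, with a log2 fold change of 1.05. It ran from 0.46 without the Control male to 1.46 without the Control female library. In endothelial cells NRXN3 was at 234 and 1922 in Control and 43.0 and 1252 in LPS libraries, a log2 fold change of -0.78 (SE 1.34). Without the LPS male library that became -4.48, with an edgeR adjusted p of 6.0e-05, the only call of a member under any alternative tried, with the LPS female as the lone LPS library, and with doublets left out the value was 0.51.

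GRID1 was lower in both LPS libraries in 3 classes, as were 7.78% of all genes tested in Purkinje cells, 8.62% in molecular layer interneurons and 13.7% in endothelial cells. In Purkinje cells it was at 432 and 742 CPM in Control and 418 and 302 in LPS libraries, a log2 fold change of -0.70 (SE 0.57). In molecular layer interneurons the values were 621 and 1031 against 472 and 547, a log2 fold change of -0.70 (SE 0.44). Without the Control male library the values in Purkinje cells and molecular layer interneurons were -0.42 and -0.40. Without 1 of the other libraries they ran down to -1.04 and -0.96. Empty droplets had 95.04 and 274 in Control and 53.9 and 163 in LPS libraries, lower in the LPS library of each sex. The alternatives that kept every library, free RNA subtracted among them, gave -0.75 to -0.67 in Purkinje cells. In molecular layer interneurons they gave -0.74 to -0.68. The cause of the lower values was not tested. In endothelial cells 61.4 and 88.6 stood against 5.73 and 48.5, a log2 fold change of -1.88 (SE 0.88) from 32, 19, 2 and 5 UMIs. With doublets left out the endothelial levels were 16.1 and 50.7 against 5.97 and 48.5 CPM, the groups overlapped and the log2 fold change was -0.47. It ran from -3.49 to -0.65 as each library in turn was left out. In Golgi cells the log2 fold change was 0.40 (SE 0.71), and -0.39 without the LPS male library. The edgeR adjusted p of each was 1.00.

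Over all 77 member tests the LPS libraries were both above the Control libraries in 7 and both below in 3. That is 9.09% and 3.90%, against 9.17% and 8.33% of all genes tested in the 19 comparisons pooled.

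The wider pathway was read from 3 lists. Of 18 ligands and partners of neurexins outside the cell, 16 were in the tables and 15 were tested in the granule lineage. All 7 of the C1q-like ligands and their adhesion receptors were in the tables, and 4 were tested. All 12 partners inside the synapse were tested. None of these genes was called in either direction in any of the 19 comparisons, and 9 of 478 such tests (1.88%) had an unadjusted p under 0.05 by edgeR, against 830 of 176349 tests (0.471%) over all genes. The median log2 fold change in the granule lineage was 0.13, -0.01 and -0.12 for the 3 lists, against 0.01 for all genes.

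Among the partners outside the cell NLGN1, a neuroligin that binds neurexins across the cleft, had 2892 and 1218 CPM in Control and 3044 and 1613 in LPS granule nuclei. CA10, a secreted neurexin ligand, had 1539 and 1137 against 1452 and 1649. LRRTM3, a postsynaptic leucine-rich partner, had 1140 and 463 against 932 and 576. CLSTN2, a calsyntenin, had 919 and 894 against 979 and 384. Their mean levels also differed by stage. LRRTM3 went from 67.8 CPM in migrating to 1336 in later granule cells, and CLSTN2 was highest in maturing granule cells, at 2186, and down to 245 in mature ones.

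Of the C1q-like group ADGRB3, an adhesion receptor of the C1q-like ligands, was abundant in granule nuclei, with 5051 and 2568 CPM in Control and 5168 and 2218 in LPS libraries. ADGRB2, a related receptor, had 20.7 and 28.8 against 15.4 and 65.4. C1QL1, the ligand known from climbing fibers, had 7.83 and 7.59 against 8.04 and 4.86. ADGRB1 had 1.34 and 3.88 against 1.19 and 4.06 and was highest in molecular layer interneurons. In the granule nuclei the log2 fold changes were -0.07 (SE 0.63) for ADGRB3 and -0.26 (SE 0.46) for C1QL1, with edgeR adjusted p values of 1.00.

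Of the partners inside the synapse CASK, a scaffold that binds the tail of neurexins, had 909 and 746 CPM in Control and 992 and 558 in LPS granule nuclei. Its mean level was 1352 in migrating and 417 in mature granule cells. APBA2, a scaffold in the same complex, had 389 and 786 against 409 and 580. SHANK2, a postsynaptic scaffold, had 270 and 874 against 269 and 535, and in Purkinje cells it had 3506, 10185, 2492 and 9537 in the order Control female, Control male, LPS female and LPS male. PTPN4, a phosphatase, had 352 and 309 against 335 and 340. Of the 12 pathway genes named, 4 had both male libraries above both female libraries and 6 had both below. The share over all genes was not counted. Over 14796 genes the deviations of the female libraries from their group means had r = 0.721, a pairing not confined to these lists.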

How the data were processed

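Single nuclei of 4 cerebella were sequenced on the 10x Genomics platform. Per the labels and the study's methods, the authors aligned reads with Cell Ranger to Mmul_8.0.1 with introns included and deposited UMI counts of every barcode, before any filter on cells. The file headers name Cell Ranger 4, whereas the study's methods name a later version. The counts are unnormalized.

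From these counts, barcodes with 500 or more genes were kept. Libraries were integrated with Seurat 5.3.0 (2000 variable genes, 30 dimensions, resolution 0.5), leaving out 44 member and pathway genes, and each of the 23 clusters took the name of the fixed marker list raised most, where at least 3 of its markers were raised. A cluster stayed unnamed where its median UMI number was under 0.333 of its libraries' medians with no marker of that name among its 10 leading genes (cluster 5, at 0.318), or where over 50% of its nuclei were called doublets (cluster 11, at 67.03%). Scrublet in scanpy 1.11.5 called doublets, which were kept. In 2 libraries its own threshold marked under 0.5% of barcodes and the median threshold of the others was used. Levels (CPM) are UMIs of a gene per 1000000 UMIs summed over the nuclei of a class in a library. Free RNA was read from barcodes ranked by UMIs between 3 and 4 times the number of nuclei. Where free RNA was subtracted, its profile came from barcodes with 100 UMIs or fewer and its share from markers of other classes. Shares use nuclei thinned to 1000 UMIs, leaving out shallower ones. Among granule nuclei these were 54, 565, 51 and 88 in the Control female, Control male, LPS female and LPS male libraries. Intervals are exact at 95% and a count of 0 was given the limit of 3 counts.

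Groups were compared with edgeR 4.0.16 (R 4.3.3) on summed counts, in classes with 10 or more nuclei in every library. The SE of a log2 fold change is its absolute value divided by the square root of the F statistic, as edgeR's test gives none itself. Alternatives were DESeq2 1.42.0, no filter, each library left out, sex as a block, other choices of nuclei, doublets left out and free RNA subtracted. Python 3.11.15, numpy 2.4.6, scipy 1.17.1, pandas 2.3.3 and matplotlib 3.10.9 were used. The genes named beside the members are those with most granule UMIs in each pathway list (4 per list, as none was called) and the 3 genes most like each member. Members and lists were chosen with earlier results of these data known. Further rows of these gene families are not reported here, nor is 1 gene that was among the 3 most like CBLN2. Gene positions and sequences were not used here. The labels do not say whether replicate fetuses came from separate experiments or days. The p-values set the difference between groups against the spread between fetuses of a group, moderated over all genes. Where sex was not a block, that spread includes the difference between the female and male libraries.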

Additional observations from a re-analysis of the deposited data

Results flagged for a closer look

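Over the 22 member comparisons whose fold change was followed through the alternatives, the LPS library lay above its Control library of the same sex in one sex and below it in the other in 5, by more than 0.25 on the log2 scale in both. Over all 114 member levels the same held for 30, some of them from few UMIs. The 22 held all 10 tests whose groups did not overlap, which cannot go opposite ways in the sexes. The rest were other granule lineage values and comparisons picked by hand. The share over all genes was not counted, so neither count has a background. With 1 library per sex and group, the difference between the sexes was not tested, and age, sex and library quality cannot be told apart. NRXN3 in the granule lineage had a log2 LPS minus Control difference of -0.50 in females and 1.26 in males, and the female minus male difference was -1.77. NRXN3 in mature granule cells had -0.52 in females and 1.00 in males, a female minus male difference of -1.52. GRID1 in later granule cells had 0.32 in females and -2.34 in males, a female minus male difference of 2.66, and GRID1 in mature granule cells had 0.43 and -2.11, a difference of 2.54. GRID1 in Golgi cells had -0.40 and 0.98, a difference of -1.39, with 15 Golgi nuclei in the LPS male library. The male LPS library in these comparisons is the one with 38.7% of its UMIs inside nuclei.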

How the results depend on the processing

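Each group held 2 fetuses, and libraries of a group differed in depth and free RNA. Beside the 0 genes called in each comparison, testing without a filter on low counts called 5 in astrocytes, 10 in Bergmann glia, 2 in committing granule cells, 6 in endothelial cells, 37 in fibroblasts, 1 in Golgi cells, 7 in cluster 2, 9 in later, 11 in mature, 12 in maturing and 8 in migrating granule cells, 4 in microglia, 14 in molecular layer interneurons, 9 in the oligodendrocyte lineage, 4 in PAX2+ interneurons, 3 in proliferating glia and 4 in Purkinje cells. DESeq2 called 6 in fibroblasts, 2 in later granule cells and 1 each in maturing and migrating granule cells and the oligodendrocyte lineage. With sex as a replicate block the counts were 2 in committing granule cells, 2 in cluster 2, 9 in migrating granule cells, 21 in molecular layer interneurons, 27 in the oligodendrocyte lineage and 3 in proliferating precursors, and the block changed no other count and no call of a member. By label each group held 1 female and 1 male, and no batch is given. The deviations of the female libraries from their group means had r = 0.721 over 14796 genes. Leaving out each library in turn gave 0 to 2 genes in astrocytes, 0 to 23 in Bergmann glia, 0 to 1 in committing granule cells, 0 to 53 in endothelial cells, 0 to 57 in fibroblasts, 0 to 7 in Golgi cells, 0 to 6 in later, 0 to 22 in maturing and 0 to 1 in migrating granule cells, 5 to 19 in molecular layer interneurons, 10 to 52 in the oligodendrocyte lineage, 1 to 53 in PAX2+ interneurons, 1 to 30 in proliferating glia, 0 to 60 in proliferating precursors and 0 to 11 in Purkinje cells. The lone library of a group is then assumed to vary like the other group. Log2 fold changes that changed sign ran from -0.23 to 0.56 for NRXN2, -0.40 to 1.14 for NRXN3, -0.062 to 0.68 for CBLN1 and -1.79 to 0.34 for CBLN4 in the granule lineage, -2.18 to 0.065 for GRID1 in later and -2.08 to 0.36 in mature granule cells, -0.28 to 0.82 for NRXN3 in mature granule cells and -0.90 to 0.32 in PAX2+ interneurons, -0.39 to 0.90 for GRID1 in Golgi cells and -4.48 to 1.32 for NRXN3 in endothelial cells, where leaving out doublets gave 0.51. The cause was not tested. Of 114 member levels, 20 moved by more than 1 SD with free RNA subtracted and 4 without doublets. Without thinning 97 of 114 shares moved.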
